A study of Mus musculus with 47 samples.

Results

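Wild-type (WT) mouse cells on day 2 of a neural differentiation were compared with WT cells on day 1, a comparison that rests on 4 of the 47 libraries of the series. The 2 day 2 and the 2 day 1 libraries were chosen by their labels, with no use of their values. All 4 came from embryonic stem cells of a line labelled E14.5, grown as a monolayer in the serum-free medium N2B27. Day 2 cells had received retinoic acid (RA) and SAG from day 0 to day 2, and day 1 cells from day 0 to day 1. SAG is a small agonist of Smoothened that switches on the Sonic hedgehog (SHH) pathway. No library without these agents at either day was used here, so the effects of time, RA and SAG cannot be told apart. The change was set beside 2 libraries of undifferentiated, untreated WT cells, and beside 3 day 2 and 3 day 1 libraries of Foxa2-/- cells given the same agents. The Foxa2-/- cells carry another line label, C57BL/6, so genotype and line cannot be told apart. The labels do not say whether replicates were separate cultures, so the p-values rest on the spread between libraries, which may be technical. The labels' protocols describe sorting only for later stages, so the values are means over whole cultures, in which fewer cells of a type and less RNA per cell cannot be told apart.

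RA binds nuclear receptors that sit on response elements in target genes. It switches on the enzymes that destroy it, gives neural cells a hindbrain and spinal cord character, and opens the 3′ ends of the HOX clusters first. SHH, released in the embryo by notochord and floor plate, relieves the block that Patched places on Smoothened, and GLI factors then switch on feedback genes such as Ptch1 and Gli1 and a set of ventral transcription factors. While this happens, cells that leave pluripotency lose the network around Pou5f1 and Nanog and gain SOX1 and other neural progenitor factors, whose upkeep in the neural tube depends on Notch signalling between neighbours.

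Levels are given in FPKM (fragments by kilobase of transcript and by library depth), for replicate 1 and then replicate 2. Changes are differences in log2(FPKM + 1) with their standard error (SE), day 2 over day 1. Because 1 is added, changes of low genes are understated, and a change against a group near 0 is no bound. A gene was called when its limma p, with Benjamini-Hochberg adjustment across the 16465 genes tested, was under 0.05. The spacing of low values gave an estimated 34400000 and 34500000 fragments for the day 2 libraries and 36400000 and 39100000 for the day 1 libraries. The log2 levels of the day 2 pair correlated at r = 0.968 across genes and those of the day 1 pair at r = 0.951. Day 1 replicate 1 stood apart: genes of high GC content read low in it, with a slope of -0.5 log2 units per 10% GC, against 0.121 and 0.22 on day 2 and 0.018 in the other day 1 library. Undifferentiated replicate 2 had a slope of -0.496, against -0.039 in undifferentiated replicate 1. Foxa2-/- day 2 replicates 1 and 3 had slopes of 0.718 and 0.375, against 0.065 in replicate 2, and these libraries enter the WT test through the shared estimate of the spread. Counts with each library's GC trend removed are given beside the main ones where they moved by over 1.5 times. For a gene named for its second-day change that lost its call when 1 of the 4 WT libraries was left out, the highest of those 4 adjusted p-values follows as its leave-one-out p. Genes named only for a difference between lines carry no such p. Among these, Prdm8, Cdh6, Socs2 and Utp6 lost their second-day call in 1 or more of those fits.

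The label calls the cells of both days neural progenitor cells. Sox1, the earliest specific marker of neural progenitors, was at 14.1 and 14.6 FPKM on day 2, against 7.21 and 6.08 FPKM on day 1 (log2 change 1.01 ± 0.13 (SE), limma adjusted p = 0.000236). Pou5f1, which encodes the pluripotency factor OCT4, was at 6.92 and 9.74 FPKM on day 2, against 113 and 259 FPKM on day 1, and undifferentiated cells had 1196 and 594 FPKM (log2 change -4.22 ± 0.45 (SE), limma adjusted p = 7.29e-05). Pou5f1 was thus higher than Sox1 in both day 1 libraries and lower in both day 2 libraries.

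In all, 2833 genes were called between the days, 17.2% of those tested: 1259 rose (7.65%) and 1574 fell (9.56%), with a median change over all genes of 0.002. Without day 1 replicate 1 the counts were 611 and 922, and with the GC trend removed they were 1472 and 1707. Without day 1 replicate 2 the balance turned to 1353 risen and 1219 fallen. Median-of-ratios scaling likewise gave 1425 risen and 1391 fallen. Which direction holds more genes thus depends on these settings. On the first day, undifferentiated cells to day 1, 2774 genes were called (16.8%), 1784 higher (10.8%) and 990 lower (6.01%), and with the GC trend removed 2413 higher and 1282 lower; that comparison shares the day 1 libraries with this one. The gene lists used below were chosen with earlier results of these data known, so their counts, medians and ranks are descriptions and no test. They are to be read beside the shares of all genes, 7.65% risen and 9.56% fallen. Of the 325 called genes that belong to a gene list or are among the largest changes, 200 kept the call in all 4 fits that leave out 1 of the 4 WT libraries. The 2 groups of libraries did not overlap in any called gene named below. For the 15 largest rises and falls this was a condition of being named, so it is no result there. Over all genes, the groups did not overlap in 31.6% (higher) and 34.2% (lower) of those tested.

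The largest changes were ranked among called protein-coding genes with a mean of 5 FPKM or more on either day. Left out were genes whose day 2 and day 1 libraries overlapped, and genes at 0 in 1 library but at 5 FPKM or more in its replicate. By this rule the largest rise was that of Id3, a BMP-induced inhibitor of basic helix-loop-helix factors, at 61.4 and 80.3 FPKM on day 2, against 0.532 and 1.96 FPKM on day 1 (log2 change 5.06 ± 0.51 (SE), limma adjusted p = 4.75e-05). Crabp1, a cytoplasmic RA-binding protein, followed at 416 and 307 FPKM on day 2, against 13.9 and 21.8 FPKM on day 1 (log2 change 4.28 ± 0.39 (SE), limma adjusted p = 2.23e-05). Fgf15, a growth factor gene of the SHH-exposed neural tube, was at 21.9 and 19.4 FPKM on day 2, against 0.0972 and 0.226 FPKM on day 1 (log2 change 4.22 ± 0.14 (SE), limma adjusted p = 2.26e-08). The next 11 were Ntn1, Id1, Vtn, Nkx6-1, Cxcr4, Slit1, Igfbp5, Gpc3, Shh, Nsg2 and Olig2, with log2 changes between 3.27 and 4.03. Gpc3, a glypican, stood at 243 and 191 FPKM on day 2, against 21.4 and 18.9 FPKM on day 1. The secreted IGF-binding protein gene Igfbp5 was at 189 and 116 FPKM on day 2, against 13.3 and 12.5 FPKM on day 1. Pagr1b, with a change of 3.31, also met the rule, but it has a near-identical copy that could share its reads, and its leave-one-out p was 0.186.

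By the same rule, the 15 largest falls were led by Mylpf, a myosin light chain gene, at 1.9 and 6.23 FPKM on day 2, against 70.9 and 137.9 FPKM on day 1 (log2 change -4.45 ± 0.75 (SE), limma adjusted p = 0.00173). L1td1, an RNA-binding protein of pluripotent cells, was at 3.05 and 2.85 FPKM on day 2, against 74.1 and 73.9 FPKM on day 1 (log2 change -4.25 ± 0.14 (SE), limma adjusted p = 2.26e-08), and Pou5f1 fell by almost as much. Csn3, which encodes kappa-casein, was at 2.38 and 4.39 FPKM in undifferentiated cells, 34.4 and 30.6 FPKM on day 1 and 0.776 and 1.98 FPKM on day 2, so its level was highest on day 1. The water channel gene Aqp3 was at 0.415 and 1.03 FPKM on day 2, against 14.5 and 28 FPKM on day 1. The germline gene Morc1 was at 0.27 and 0.491 FPKM on day 2, against 16.4 and 12.8 FPKM on day 1. Dppa2, Fbxo15, Dppa5a and Stra8 are described with their groups. Hsd17b14, a steroid dehydrogenase gene, was at 1.81 and 0.413 FPKM on day 2, against 14.7 and 19.6 FPKM on day 1. The autophagy receptor gene Calcoco2 was at 0.264 and 0.77 FPKM on day 2, against 12.5 and 12.2 FPKM on day 1. The homeobox gene Cphx3 was at 0 and 0.177 FPKM on day 2, against 9.59 and 8.64 FPKM on day 1. The remaining 2, Gm13051 and Gm13151, are zinc-finger genes with close copies nearby.

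**Figure D1:**
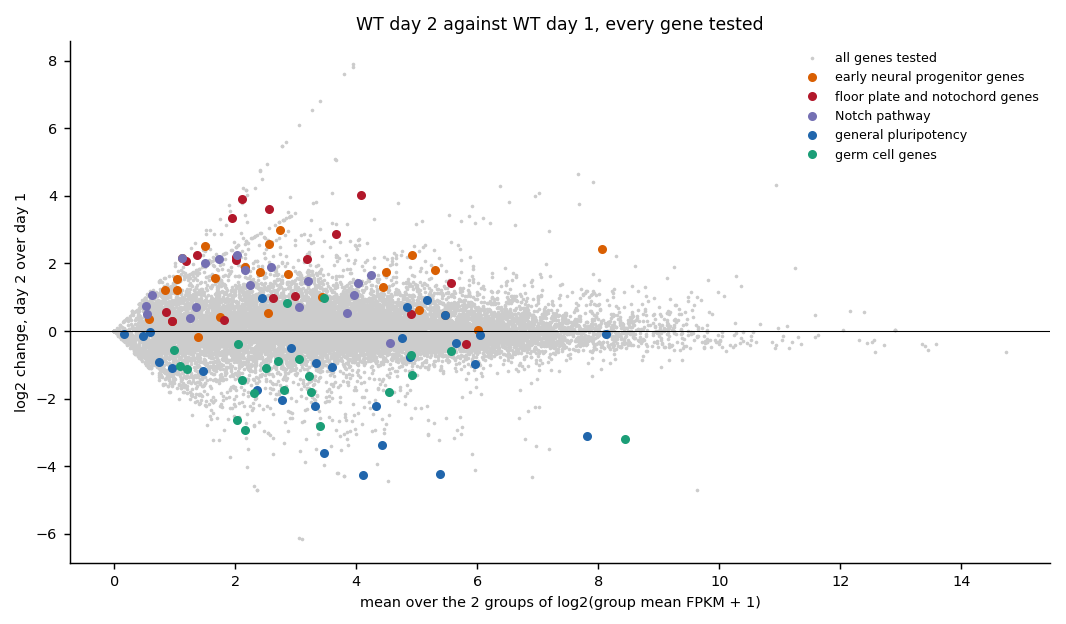
Each point is 1 of the 16465 genes tested. The x axis gives the mean over the 2 groups of log2(group mean FPKM + 1) and the y axis the log2 change, day 2 over day 1, in WT cells, with 5 gene lists in colour. Floor plate, neural progenitor and Notch genes lie mostly above 0, general pluripotency and germ cell genes mostly below, and the unlisted grey points beyond 6 on the y axis include genes listed at 0 in a library, which are not named as changed.

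RA handling and direct targets did not move as a block. Of the 24 genes listed, 21 were tested, 5 rose and 5 fell, with a median change of 0.29, against 7.65% and 9.56% of all genes. With the GC trend removed 7 rose and 7 fell, with a median of 0.04. Cyp26a1, whose enzyme clears RA and which is among the most direct RA targets, was at 2.5 and 2.5 FPKM in undifferentiated cells, 106 and 98.7 FPKM on day 1 and 8.95 and 14.4 FPKM on day 2 (log2 change -3.06 ± 0.21 (SE), limma adjusted p = 3.73e-06, day 2 over day 1). Stra8, an RA-induced gene of meiotic entry, went the same way, with 39.1 and 55.7 FPKM in undifferentiated cells, 1022 and 987 FPKM on day 1 and 68.4 and 172 FPKM on day 2 (log2 change -3.2 ± 0.35 (SE), limma adjusted p = 9.15e-05). Both genes were thus at their highest on day 1, and on day 2 both libraries still lay above the undifferentiated ones. The related clearance gene Cyp26b1 was at 0.597 and 1.95 FPKM on day 2, against 3.53 and 3.67 FPKM on day 1 (log2 change -1.08 ± 0.22 (SE), limma adjusted p = 0.00621). The RA-synthesis gene Aldh1a2 was at 0.532 and 1.1 FPKM on day 2, against 2.6 and 2.33 FPKM on day 1, a fall with a leave-one-out p of 0.0932. Rarg, the RA receptor gene of pluripotent cells, was at 4.21 and 5.33 FPKM on day 2, against 23.7 and 22.2 FPKM on day 1 (log2 change -2.06 ± 0.16 (SE), limma adjusted p = 7.07e-06).

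Other RA-linked genes rose on the second day. Beside Crabp1, the retinal-to-RA enzyme gene Aldh1a1 was at 5.36 and 4.84 FPKM on day 2, against 0.64 and 0.6 FPKM on day 1 (log2 change 1.91 ± 0.14 (SE), limma adjusted p = 6.91e-06). The retinol dehydrogenase gene Rdh10 was at 21.9 and 14.9 FPKM on day 2, against 5.7 and 4.49 FPKM on day 1 (log2 change 1.66 ± 0.21 (SE), limma adjusted p = 0.000223). The transglutaminase gene Tgm2 was at 10.5 and 10.4 FPKM on day 2, against 1.82 and 3.01 FPKM on day 1 (log2 change 1.77 ± 0.21 (SE), limma adjusted p = 0.000182). Rxra, a partner receptor, was at 14 and 16.6 FPKM on day 2, against 4.4 and 7.28 FPKM on day 1, with a leave-one-out p of 0.134. Rarb, a receptor gene that RA itself induces, was at 0.587 and 0.724 FPKM in undifferentiated cells, 21.5 and 21.8 FPKM on day 1 and 23.8 and 34.9 FPKM on day 2, and its day 2 over day 1 change of 0.4 did not pass (limma adjusted p = 0.12). Crabp2 showed 40 and 28 FPKM in undifferentiated cells, 386 and 412 FPKM on day 1 and 584 and 723 FPKM on day 2, and its change of 0.7 did not pass either (limma adjusted p = 0.0645). The retinol uptake gene Stra6 was at 35.6 and 53.5 FPKM on day 2, against 17.5 and 31.8 FPKM on day 1, with a limma adjusted p of 0.056. The retinal reductase gene Dhrs3 was at 5.15 and 20.6 FPKM on day 2, against 27.1 and 42 FPKM on day 1, with a limma adjusted p of 0.0516. Its 2 day 2 libraries were far apart, and neither overlapped the day 1 pair.

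The promoters of Cyp26a1 and Rarb are shown because they were the only 2 of 18 RA genes with RefSeq promoters to hold the direct repeat called DR5, the classical RA response element, in the 300 bases around the start (250 before, 50 after). Both run 5′ to 3′ on the gene's strand, from RefSeq on GRCm38.p6, with the DR5 in capitals, first the Cyp26a1 promoter at chr19:37697558-37697857 (+) and then that of Rarb at chr14:16575427-16575726 (-).
Cyp26a1: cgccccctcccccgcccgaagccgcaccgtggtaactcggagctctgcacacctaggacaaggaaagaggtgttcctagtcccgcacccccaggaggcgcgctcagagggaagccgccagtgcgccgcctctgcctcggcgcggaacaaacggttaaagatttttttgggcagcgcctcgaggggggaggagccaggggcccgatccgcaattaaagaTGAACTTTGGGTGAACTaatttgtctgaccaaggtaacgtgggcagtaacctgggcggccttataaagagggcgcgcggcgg
Rarb: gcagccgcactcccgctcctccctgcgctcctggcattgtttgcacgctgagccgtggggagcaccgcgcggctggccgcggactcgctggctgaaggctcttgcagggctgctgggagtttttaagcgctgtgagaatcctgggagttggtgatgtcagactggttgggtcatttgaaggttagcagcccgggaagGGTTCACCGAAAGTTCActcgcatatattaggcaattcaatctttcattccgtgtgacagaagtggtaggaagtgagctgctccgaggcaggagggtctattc
A DR5 on either strand was found in 0.0974% of all 32851 promoters searched. These are matches of letters, not measured binding, and the 2 genes differed in the second day: Cyp26a1 fell and Rarb was not called.

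HOX genes moved in both directions. Of the 39 listed, 38 were in the table and 21 were tested; 4 rose and 7 fell, with a median change of 0.02. Hoxd3, of paralog group 3, had the clearest rise at 13.3 and 13.8 FPKM on day 2, against 1.3 and 0.918 FPKM on day 1 (log2 change 2.79 ± 0.19 (SE), limma adjusted p = 3.73e-06), and undifferentiated cells had 0.0604 and 0.0641 FPKM. Hoxa2, a gene of the rhombomeres, was at 9.95 and 9.74 FPKM on day 2, against 4.1 and 3.19 FPKM on day 1 (log2 change 1.23 ± 0.16 (SE), limma adjusted p = 0.000244). Hoxb3 was at 2.6 and 3.27 FPKM on day 2, against 0.971 and 0.776 FPKM on day 1, with a leave-one-out p of 0.147. Hoxc4 was at 4.02 and 6.7 FPKM on day 2, against 2.8 and 3.44 FPKM on day 1, with a leave-one-out p of 0.395. Neither passed with the GC trend removed (limma adjusted p = 0.108 and 0.168), which left 2 rises and 6 falls in the list and a median of -0.23.

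The largest HOX fall was that of Hoxb1, an early RA target that in the embryo becomes restricted to rhombomere 4, with 1.5 and 1.05 FPKM in undifferentiated cells, 20 and 22.1 FPKM on day 1 and 3.14 and 7.31 FPKM on day 2 (log2 change -1.91 ± 0.32 (SE), limma adjusted p = 0.00167, day 2 over day 1). Hoxb9 was at 1.57 and 6.65 FPKM on day 2, against 13.6 and 10.7 FPKM on day 1 (log2 change -1.56 ± 0.37, leave-one-out p 0.094). Hoxa5 was at 5.44 and 10.4 FPKM on day 2, against 18.9 and 18.2 FPKM on day 1 (log2 change -1.19 ± 0.27, leave-one-out p 0.115). Hoxb6, a trunk HOX gene, was at 0.473 and 2.45 FPKM on day 2, against 3.29 and 3.84 FPKM on day 1. In Hoxb1, Hoxb9, Hoxa5 and Hoxb6 day 2 replicate 1 was lower than day 2 replicate 2. The falls of Hoxb6, Hoxa7 and Hoxd13 had leave-one-out p-values of 0.241, 0.0638 and 0.225, and that of Hoxd13 did not pass with the GC trend removed (limma adjusted p = 0.102). Leaving out 1 library gave between 2 and 5 rises and between 2 and 7 falls in the list. Hoxa2, Hoxd3 and Hoxb1 were the only HOX genes called in all 4 of those fits. Hoxa3, Hoxa4, Hoxb2, Hoxb4, Hoxb7 and Hoxb8 were not called, with changes between -0.16 and 0.3. Most posterior HOX genes failed the filter on low values: Hoxa9 was at 0.346 and 0.145 FPKM on day 2, against 0.164 and 0.187 FPKM on day 1, Hoxa10 at 0.164 and 0.164 FPKM on day 2, against 0.345 and 0.304 FPKM on day 1, and Hoxc12 and Hoxd12 were listed at 0.

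**Figure D2:**
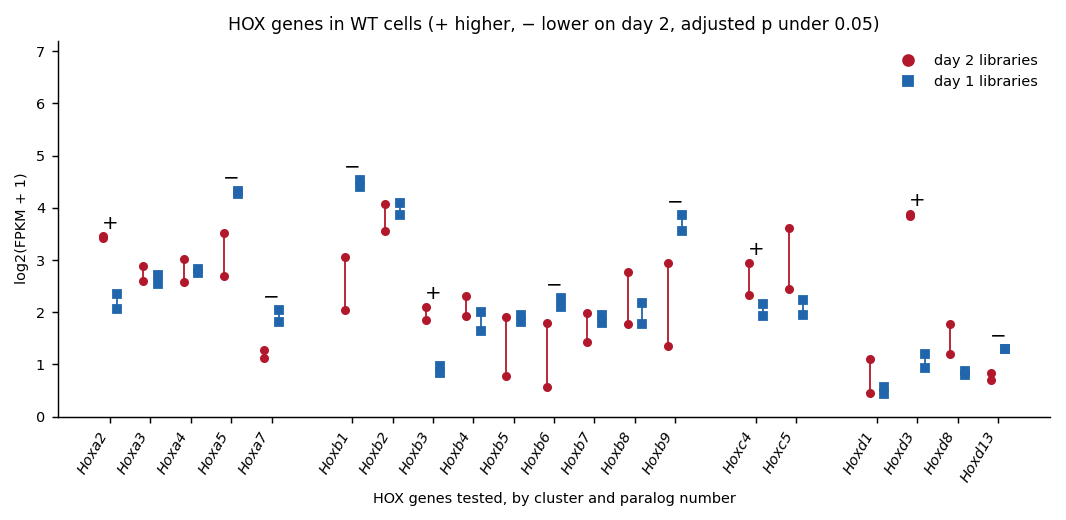
Levels of HOX genes tested, as log2(FPKM + 1), in the 2 day 2 libraries (red circles, left of each pair) and the 2 day 1 libraries (blue squares, right), by cluster and paralog number; a plus or minus marks a called rise or fall. Hoxd3 and Hoxa2 separate upward and Hoxb1 downward, while many other pairs overlap or have widely spaced day 2 libraries.

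Of the HOX co-factors and hindbrain regulators more rose than fell. All 19 were tested, 11 rose and 1 fell, and the median change was 0.88; with 1 library left out 5 to 8 rose, and with the GC trend removed 9 rose and 2 fell. Zfp503 (also Nolz1), a zinc-finger gene, was at 10.3 and 8.94 FPKM on day 2, against 0.843 and 1.15 FPKM on day 1 (log2 change 2.41 ± 0.14 (SE), limma adjusted p = 1.44e-06). Meis1, a TALE-class partner of HOX proteins, was at 43.4 and 48.9 FPKM on day 2, against 16.9 and 16.6 FPKM on day 1 (log2 change 1.41 ± 0.2 (SE), limma adjusted p = 0.000616). The hindbrain growth factor gene Fgf3 was at 3.02 and 3.17 FPKM on day 2, against 0.31 and 0.472 FPKM on day 1, with a change of 1.56 ± 0.28 (SE). Egr2, the marker of rhombomeres 3 and 5, was at 0.218 and 0.0784 FPKM on day 2, against 0.0211 and 0.069 FPKM on day 1. Meis2, the most abundant member, was at 101 and 148 FPKM on day 2, against 59.6 and 79.4 FPKM on day 1, and did not pass (limma adjusted p = 0.156). The anterior hindbrain gene Gbx2 was the member that fell, at 1.51 and 2.85 FPKM on day 2, against 5.44 and 6.63 FPKM on day 1 (log2 change -1.17 ± 0.21 (SE), limma adjusted p = 0.00257).

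Of 22 forebrain and midbrain regulators 6 reached the filter, of which 1 rose and 2 fell. Otx2, a marker of primed epiblast and of forebrain and midbrain, was at 9.01 and 6.67 FPKM in undifferentiated cells, 1.35 and 1.8 FPKM on day 1 and 0.103 and 0.0728 FPKM on day 2 (log2 change -1.24 ± 0.17 (SE), limma adjusted p = 0.000438). Emx2 was at 0.279 and 0.372 FPKM on day 2, against 1.72 and 2.15 FPKM on day 1, with a leave-one-out p of 0.068. Wnt1, a gene of the dorsal neural tube and the midbrain border, was at 2.18 and 2.01 FPKM on day 2, against 0.0717 and 0.0111 FPKM on day 1 (log2 change 1.57 ± 0.15 (SE), limma adjusted p = 2.61e-05). En1, Six3, Barhl2, Nkx2-1 and Rax were near 0, with the highest value among them 0.0936 FPKM. Among 9 tested genes of the caudal epiblast, Sp5 and Sp8 rose, Cyp26a1 (also in the RA list) and Cdx1 fell, and T, the Brachyury gene, was at 0.298 and 0.233 FPKM on day 2, against 0.0544 and 0.298 FPKM on day 1. The leave-one-out p of Cdx1 was 0.12.

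SHH feedback targets rose together. All 16 listed were tested and 14 rose, none fell, with a median change of 1.83. With 1 library left out 9 to 11 rose, and with the GC trend removed 14. Gli1, the GLI factor whose transcription follows pathway activity, was at 15.8 and 16.3 FPKM on day 2, against 1.06 and 2.09 FPKM on day 1 (log2 change 2.76 ± 0.23 (SE), limma adjusted p = 1.2e-05). The ventral homeobox gene Nkx6-1 was at 16.4 and 13.8 FPKM on day 2, against 0.123 and 0.191 FPKM on day 1 (log2 change 3.8 ± 0.15 (SE), limma adjusted p = 1.23e-07). Olig2, of motor neuron progenitors, was at 10.5 and 11.1 FPKM on day 2, against 0.233 and 0.216 FPKM on day 1 (log2 change 3.27 ± 0.17 (SE), limma adjusted p = 4.65e-07). Nkx2-9, a p3 and floor plate homeobox gene, was at 9.09 and 7.18 FPKM on day 2, against 0.221 and 0.273 FPKM on day 1 (log2 change 2.87 ± 0.28 (SE), limma adjusted p = 4.35e-05). In undifferentiated cells the highest of these 3 ventral genes in any library was Nkx2-9, at 0.265 and 0.0502 FPKM, so all 3 were low both before differentiation and on day 1. Mycn and Ccnd1 encode growth regulators that SHH induces in neural precursors. Mycn was at 32.3 and 22 FPKM in undifferentiated cells, 5.42 and 5.66 FPKM on day 1 and 29.9 and 30.3 FPKM on day 2, with a change of 2.25 ± 0.17 (SE) over the second day. Ccnd1, cyclin D1, was at 38.8 and 26.6 FPKM in undifferentiated cells, 8.02 and 10.7 FPKM on day 1 and 46.7 and 44.6 FPKM on day 2, with a change of 2.18 ± 0.22 (SE). Both were lowest on day 1.

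Ptch1, the SHH receptor and best known feedback gene, was at 91.6 and 84.8 FPKM in the day 2 libraries and 13 and 19.3 FPKM in the day 1 libraries, and the groups did not overlap. Its change of 2.4 ± 0.79 (SE) did not pass (limma adjusted p = 0.0595). It was called in 7 of 18 alternatives. Among these were the fit of only the groups compared (limma adjusted p = 0.0377) and that with the GC trend removed (limma adjusted p = 0.0449). In Foxa2-/- cells, which share the estimate of the spread, Ptch1 was at 3.5, 55.2 and 12.1 FPKM on day 2, against 25.7, 27.3 and 29.5 FPKM on day 1. There the 3 day 2 libraries were far apart. Hhip, a membrane protein that binds SHH, was at 5.49 and 5.39 FPKM on day 2, against 1.98 and 1.86 FPKM on day 1 (log2 change 1.14 ± 0.22 (SE), limma adjusted p = 0.00394). Nkx2-2, the p3 progenitor factor, was low and uneven at 1.4 and 0.45 FPKM on day 2, against 0.0407 and 0.0336 FPKM on day 1, with a leave-one-out p of 0.178 and a limma adjusted p of 0.0964 with the GC trend removed. Nkx6-2, Cdk6, Bcl2 and Hhat also passed with all libraries but had leave-one-out p-values of 0.177, 0.158, 0.0986 and 0.16, and Nkx6-2 did not pass with the GC trend removed (limma adjusted p = 0.102).

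Genes of the machinery that receives SHH rose in part. Of 17 genes, 16 were tested, 6 rose and none fell, with a median of 0.77. The co-receptor gene Boc was at 3.78 and 5.59 FPKM on day 2, against 0.978 and 1.44 FPKM on day 1, with a change of 1.35 ± 0.18 (SE), and the activator gene Gli2 at 5.78 and 8.47 FPKM on day 2, against 1.43 and 2.23 FPKM on day 1, with a change of 1.52 ± 0.25 (SE). Scube1, whose protein helps to release SHH, was at 4.59 and 4.22 FPKM on day 2, against 0.323 and 0.614 FPKM on day 1 (log2 change 1.89 ± 0.13 (SE), limma adjusted p = 3.74e-06). Its relative Scube3 was at 6.85 and 6.6 FPKM on day 2, against 1.72 and 2.18 FPKM on day 1 (log2 change 1.39 ± 0.2 (SE), limma adjusted p = 0.000631). Smo, which encodes the protein that SAG binds, was at 49.3 and 54.1 FPKM on day 2, against 23.5 and 29.8 FPKM on day 1, with a leave-one-out p of 0.0684, and the co-receptor gene Gas1 rose by 0.89 but lost the call with the GC trend removed (limma adjusted p = 0.23). The repressor-forming Gli3 was at 14.9 and 16.1 FPKM on day 2, against 9.42 and 8.86 FPKM on day 1, and did not pass (limma adjusted p = 0.112). Ift88 and Arl13b, which the primary cilium needs, had changes of -0.05 and -0.26, which did not pass (limma adjusted p = 0.931 and 0.618).

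**Figure D3:**
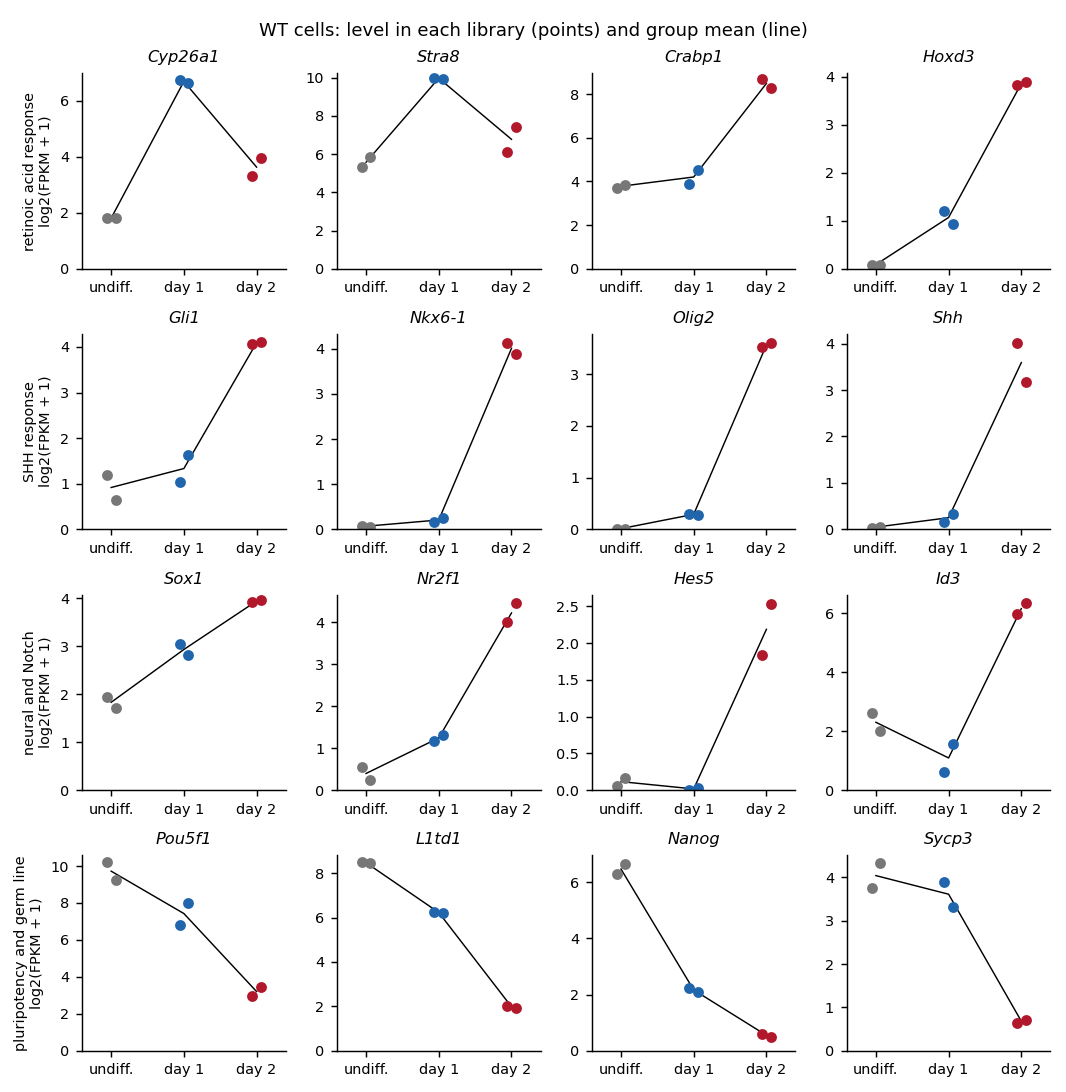
Levels of 16 genes as log2(FPKM + 1) in the 2 libraries each of undifferentiated, day 1 and day 2 WT cells (points), with the group mean (line), on axes that start at 0. Cyp26a1 and Stra8 peak on day 1, Nkx6-1, Olig2, Shh and Hes5 leave the baseline on day 2, and Pou5f1, L1td1 and Nanog step down over both days.

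Genes of the ventral and intermediate neural tube followed: of 17 tested, 12 rose and 2 fell, with a median of 1.15, and 8 to 10 rose with 1 library left out or with the GC trend removed. The median with the GC trend removed was 0.71. This list shares 5 genes with the SHH feedback list, Nkx6-1, Olig2, Nkx2-9, Nkx6-2 and Nkx2-2. Of the others, Dbx1, of the p0 domain, was at 0.828 and 2.06 FPKM on day 2, against 0.0551 and 0.0767 FPKM on day 1 (log2 change 1.15 ± 0.22 (SE), limma adjusted p = 0.00372). Irx3, whose domain borders that of Olig2, was at 2.8 and 5.54 FPKM on day 2, against 0.817 and 1.03 FPKM on day 1, with a leave-one-out p of 0.0743. Genes of the dorsal tube also rose. Msx1 was at 3.45 and 7.15 FPKM on day 2, against 0.375 and 0.42 FPKM on day 1. Zic1 was at 1.81 and 2.4 FPKM on day 2, against 0.205 and 0.499 FPKM on day 1. Pax6, a factor of all but the most ventral progenitors, was at 2.25 and 1.85 FPKM in undifferentiated cells, 24 and 25 FPKM on day 1 and 26.1 and 56.4 FPKM on day 2; its 2 day 2 libraries were far apart, and the change of 0.63 did not pass (limma adjusted p = 0.137). Zic5, which pluripotent cells also express, was at 3.38 and 4.73 FPKM on day 2, against 8.5 and 7.33 FPKM on day 1, a fall with a leave-one-out p of 0.27. Pax3, a dorsal progenitor factor, did not reach the filter, at 0.674 and 1.22 FPKM on day 2, against 0.244 and 0.194 FPKM on day 1, nor did its paralog Pax7, which was at 0.136 and 0.16 FPKM on day 2, against 0.0092 and 0.047 FPKM on day 1.

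Floor plate and notochord genes had the highest median change of the lists, 2.09. SHH feedback targets stood above them without day 1 replicate 2, with a median of 1.98, against 1.86, and with a filter of 5 FPKM, with 2.25, against 2.14. Of 26 genes, 18 were tested, 13 rose and none fell, and 13 to 15 rose with 1 library left out. Shh itself (GRCm38 chr5:28456815-28467256) was at 15.1 and 8 FPKM on day 2, against 0.125 and 0.262 FPKM on day 1 (log2 change 3.34 ± 0.21 (SE), limma adjusted p = 2.29e-06). Foxa2 (chr2:148042877-148046969), the forkhead factor of floor plate, was at 0.589 and 0.67 FPKM in undifferentiated cells, 3.37 and 3.82 FPKM on day 1 and 41.8 and 25.5 FPKM on day 2 (log2 change 2.88 ± 0.18 (SE), limma adjusted p = 2.67e-06). Ntn1, the attractant netrin-1 of commissural axons, was at 75 and 59.4 FPKM on day 2, against 2.64 and 3.74 FPKM on day 1 (log2 change 4.03 ± 0.17 (SE), limma adjusted p = 1.79e-07). Vtn, the matrix protein vitronectin, was at 22 and 10.4 FPKM on day 2, against 0 and 0.177 FPKM on day 1 (log2 change 3.9 ± 0.26 (SE), limma adjusted p = 3.37e-06). The repellent genes Slit1, Slit2 and Slit3 rose by 3.61 ± 0.33, 2.14 ± 0.37 and 2.18 ± 0.25 (SE), and the F-spondin gene Spon1 by 2.26 ± 0.15 (SE). The BMP antagonist gene Nog was at 4.96 and 2.51 FPKM on day 2, against 0.106 and 0.0843 FPKM on day 1 (log2 change 2.06 ± 0.21 (SE), limma adjusted p = 5.84e-05). In Shh, Foxa2, Vtn and Nog day 2 replicate 1 was well above replicate 2, yet both were above both day 1 libraries. Sox9, Lmx1b, Chrd, Sulf1 and Cdh1 were not called, with changes between -0.37 and 0.55. Ferd3l, a floor plate gene, missed the filter, at 1.33 and 0.723 FPKM on day 2, against 0 and 0 FPKM on day 1. Noto, a notochord gene, was at 0 and 0 FPKM on day 2, against 0 and 0.0345 FPKM on day 1, and T is given above, so both defining notochord markers were near 0.

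The same days were compared in Foxa2-/- cells, and the difference between the 2 changes was tested. In that line Foxa2 was at 0, 0.0368 and 0 FPKM on day 2, against 0, 0.0409 and 0.0444 FPKM on day 1, so the deleted gene was at or near 0 in all 6 libraries. Over all genes 228 differed (1.38%), 208 with the higher change in WT cells (1.26%) and 20 with the lower (0.121%). The median difference over all genes was 0.17, and the differences below are relative to it, while each p tests the difference itself. The count ranged between 62 and 2527 when 1 library was left out, the highest without Foxa2-/- day 2 replicate 2, and under quantile normalization the split was 85 higher and 51 lower. Among the floor plate and notochord genes, 10 were among the 208 with the higher change in WT cells. Foxa2, the gene deleted in the other line, is among these 10, so its own difference was fixed in advance. Shh changed by 3.34 in WT cells and 0.07 in Foxa2-/- cells, where it was at 0.115, 0.0686 and 0.121 FPKM on day 2, against 0.0394, 0.0218 and 0.0818 FPKM on day 1 (difference 3.09, limma adjusted p = 0.000248). Vtn changed by 3.9 in WT cells and 0.03 in Foxa2-/- cells (difference 3.7, limma adjusted p = 0.000248). Ntn1 rose in both, by 4.03 in WT cells and 1.55 in Foxa2-/- cells (difference 2.3, limma adjusted p = 0.000274). Foxa1, the paralog of Foxa2, changed by 0.99 in WT cells and -0.74 in Foxa2-/- cells (difference 1.57, limma adjusted p = 0.00441). For Cdh1 the difference of 1.75 came with little change in WT cells (-0.37) and a fall in Foxa2-/- cells (-2.29). The differences of Shh, Foxa2, Vtn, Ntn1 and Cdh1 were called in all 23 alternatives run, that of Foxa1 in 22 and that of Slit1 in 21. Those of Slit2, Slit3 and Nrp2 were called in 7, 8 and 9 only.

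Of the ventral and intermediate genes 1 had a called difference, Prdm8, with a change of 0.65 in WT cells and 1.67 in Foxa2-/- cells (difference -1.19, limma adjusted p = 0.0151), a call made in 14 of 22 alternatives. For Nkx6-1, Olig2 and Gli1 none was called. Nkx6-1 changed by 3.8 in WT cells and 3.66 in Foxa2-/- cells, where it was at 23.5, 17.8 and 17.9 FPKM on day 2, against 0.566, 0.684 and 0.651 FPKM on day 1. Olig2 changed by 3.27 in WT cells and 3.6 in Foxa2-/- cells, and Gli1 by 2.76 in WT cells and 1.86 in Foxa2-/- cells. The limma adjusted p of the difference was 0.748 for Nkx6-1, 0.482 for Olig2 and 0.19 for Gli1. A p over the threshold does not show that the lines act alike. Genes that rose more in Foxa2-/- cells included the neural POU factor gene Pou3f3, with 1.54 in WT cells and 3.0 in Foxa2-/- cells (difference -1.63, limma adjusted p = 0.00223).

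**Figure D4:**
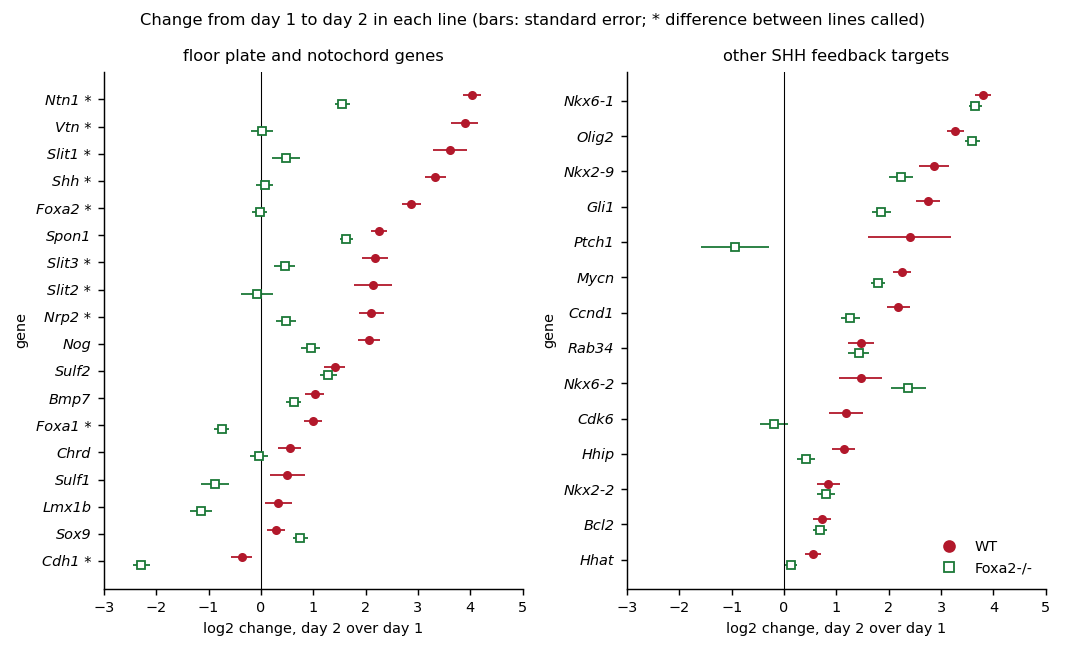
Log2 change from day 1 to day 2 (day 2 over day 1) with its standard error in WT cells (red circles) and Foxa2-/- cells (open green squares), for floor plate and notochord genes (left) and other SHH feedback targets (right). An asterisk marks a called difference between the lines: it stands at 10 floor plate genes, the deleted Foxa2 among them, and at no gene on the right.

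Early neural progenitor genes rose broadly. Of 25 tested, 18 rose and none fell, with a median of 1.54, and 15 to 17 rose with 1 library left out. The orphan nuclear receptor gene Nr2f1 was at 14.9 and 20.8 FPKM on day 2, against 1.25 and 1.49 FPKM on day 1 (log2 change 2.98 ± 0.19 (SE), limma adjusted p = 2.67e-06). Its paralog Nr2f2 was at 13.7 and 13.1 FPKM on day 2, against 1.4 and 1.41 FPKM on day 1 (log2 change 2.58 ± 0.12 (SE), limma adjusted p = 2.66e-07). Pou3f2 (BRN2) was at 5.95 and 5.63 FPKM on day 2, against 0.197 and 0.159 FPKM on day 1 (log2 change 2.53 ± 0.14 (SE), limma adjusted p = 9.76e-07). Vim, an intermediate filament gene, was at 235 and 202 FPKM in undifferentiated cells, 97.9 and 132 FPKM on day 1 and 654 and 576 FPKM on day 2, with a change of 2.43 ± 0.24 (SE) over the second day. Nes, the filament gene nestin, was at 26.3 and 16.5 FPKM in undifferentiated cells, 11.6 and 11.2 FPKM on day 1 and 41.5 and 38.9 FPKM on day 2, with a change of 1.73 ± 0.17 (SE). Both were lowest on day 1. Cdh2, N-cadherin, was at 4.76 and 4.81 FPKM in undifferentiated cells, 13.3 and 12.7 FPKM on day 1 and 64.4 and 65.3 FPKM on day 2 and so climbed at both steps (log2 change 2.24 ± 0.28 (SE), limma adjusted p = 0.000231, day 2 over day 1). The RNA-binding progenitor gene Msi1 was at 77.3 and 67.4 FPKM on day 2, against 17.2 and 23 FPKM on day 1. Prom1, which encodes the prominin used to sort older cells of this series, was at 35.1 and 31.1 FPKM on day 2, against 13.4 and 12.2 FPKM on day 1. Sox2, shared by pluripotent and neural cells, was at 46.3 and 61.4 FPKM in undifferentiated cells, 37.8 and 34.9 FPKM on day 1 and 55.9 and 47.2 FPKM on day 2, with a change of 0.49, a leave-one-out p of 0.287 and no call with the GC trend removed (limma adjusted p = 0.0748). Sox3, its close relative, was at 7.71 and 9.48 FPKM on day 2, against 1.08 and 2.85 FPKM on day 1, with a leave-one-out p of 0.111. Nr6a1, an orphan receptor gene, was at 65.4 and 63.7 FPKM on day 2, against 66 and 59.8 FPKM on day 1, with a limma adjusted p of 0.921.

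Neurogenesis genes rose but stayed at low levels. Of 30 genes 21 were tested, 11 rose and 1 fell, and the median change was 0.76; with the GC trend removed 2 fell. The proneural gene Neurog2 was at 2.35 and 4.76 FPKM on day 2, against 0.116 and 0.0358 FPKM on day 1 (log2 change 2.03 ± 0.21 (SE), limma adjusted p = 4.91e-05). Neurod4, which acts after it, was at 7.26 and 6.18 FPKM on day 2, against 0.0248 and 0.0692 FPKM on day 1 (log2 change 2.88 ± 0.25 (SE), limma adjusted p = 1.72e-05). Isl1, a motor neuron factor, was at 1.52 and 1.67 FPKM on day 2, against 0.592 and 0.6 FPKM on day 1. Elavl3, a pan-neuronal RNA-binding gene, was at 1.82 and 1.99 FPKM on day 2, against 0.41 and 0.631 FPKM on day 1. Dcx and Neurog1 did not pass, with 0.73 and 1.17 FPKM on day 2, against 0.345 and 0.169 FPKM on day 1 for Dcx. Stmn2, a neuronal tubulin regulator, moved the other way, at 119 and 119 FPKM in undifferentiated cells, 28.6 and 27.3 FPKM on day 1 and 8.66 and 6.77 FPKM on day 2 (log2 change -1.74 ± 0.15 (SE), limma adjusted p = 2.02e-05). Its level was highest in undifferentiated cells.

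Notch pathway genes rose with the progenitor genes. Of 19 tested 14 rose and none fell, with a median of 1.36, and 7 to 12 rose with 1 library left out. The effector gene Hes5, which holds neural progenitors back from differentiating, was at 2.58 and 4.79 FPKM on day 2, against 0 and 0.0226 FPKM on day 1 (log2 change 2.17 ± 0.42 (SE), limma adjusted p = 0.00397). Hey1 was at 7.13 and 4.92 FPKM on day 2, against 0.559 and 0.58 FPKM on day 1 (log2 change 2.14 ± 0.2 (SE), limma adjusted p = 2.53e-05). Nrarp, a feedback inhibitor of the pathway, was at 4.79 and 4.57 FPKM on day 2, against 0.483 and 0.357 FPKM on day 1 (log2 change 2.0 ± 0.14 (SE), limma adjusted p = 3.96e-06). Among ligand genes, Jag1 was at 8.66 and 7.03 FPKM on day 2, against 0.836 and 0.884 FPKM on day 1 (log2 change 2.24 ± 0.24 (SE), limma adjusted p = 6.56e-05). Dll1 was at 23.2 and 28.6 FPKM on day 2, against 7.81 and 10.1 FPKM on day 1, with a change of 1.43 ± 0.28 (SE). Dll4 was at 1.07 and 1.39 FPKM on day 2, against 0.0531 and 0.0893 FPKM on day 1, with a change of 1.05 ± 0.15 (SE). Among receptor genes, Notch1 was at 12.9 and 14.9 FPKM on day 2, against 2.89 and 6.42 FPKM on day 1, and did not pass (limma adjusted p = 0.0729), while Notch2, Notch3 and Notch4 passed with leave-one-out p-values of 0.0802, 0.0995 and 0.27. With the GC trend removed 12 rose, and Notch4 was not among them (limma adjusted p = 0.63). Mfng, a glycosyltransferase gene that modifies Notch receptors, was at 7.23 and 7.2 FPKM on day 2, against 0.735 and 2.17 FPKM on day 1, with a leave-one-out p of 0.0821. Its relative Lfng was at 6.61 and 6.42 FPKM on day 2, against 1.38 and 2.63 FPKM on day 1, with a leave-one-out p of 0.096. In Notch1, Notch3, Mfng and Lfng day 1 replicate 1 was lower than day 1 replicate 2. Rbpj, which encodes the DNA-binding partner of all Notch receptors, was at 19.4 and 20.2 FPKM on day 2, against 28.2 and 23.4 FPKM on day 1 and was not called (limma adjusted p = 0.305).

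The Hes5 promoter is shown because Hes5 had the largest rise of the Notch effectors with the RBPJ letters GTGGGAA in the 300 bases around the start. They are in capitals, on either strand, in RefSeq sequence of GRCm38.p6 at chr4:154960673-154960972 (+), written 5′ to 3′.
Hes5: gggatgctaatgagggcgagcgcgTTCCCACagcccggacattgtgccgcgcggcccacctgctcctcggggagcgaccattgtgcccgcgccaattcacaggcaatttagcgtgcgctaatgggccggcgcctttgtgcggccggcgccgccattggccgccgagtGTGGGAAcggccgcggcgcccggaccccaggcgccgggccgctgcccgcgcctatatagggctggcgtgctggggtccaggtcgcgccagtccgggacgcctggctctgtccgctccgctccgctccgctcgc
The 2 matches stand at -226 and -83 from the start, the first on the opposite strand. The motif was found in 6.38% of all 32851 promoters, and in 3 of 11 Notch genes that rose (Hes5, Hey2 and Lfng). The rise of Hey2 had a leave-one-out p of 0.136. The motif was chosen after the values were seen, so the share is a description only.

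BMP signalling genes and the ID genes that BMP induces rose as well: 11 of 20 tested, none fell, with a median of 0.83, and 9 to 11 with 1 library left out. After Id3, Id1 was at 15.9 and 13.1 FPKM in undifferentiated cells, 0.569 and 1.26 FPKM on day 1 and 24.3 and 32.7 FPKM on day 2 (log2 change 3.96 ± 0.37 (SE), limma adjusted p = 3.04e-05). Id2 was at 33.9 and 24.8 FPKM in undifferentiated cells, 9.34 and 9.71 FPKM on day 1 and 88.6 and 99.3 FPKM on day 2 (log2 change 3.17 ± 0.15 (SE), limma adjusted p = 2.66e-07). Both had their low point on day 1. Bmp4 was at 8.21 and 6.11 FPKM on day 2, against 0.727 and 2.12 FPKM on day 1 (log2 change 1.8 ± 0.3 (SE), limma adjusted p = 0.00162). Bmp7 was at 9.72 and 10.9 FPKM on day 2, against 3.88 and 5.28 FPKM on day 1. Of the antagonist genes, Fst, follistatin, was at 17 and 11.8 FPKM on day 2, against 1.32 and 1.54 FPKM on day 1 (log2 change 2.65 ± 0.2 (SE), limma adjusted p = 7.13e-06), Nog is given above, and Chrd did not pass (limma adjusted p = 0.116). The receptor gene Bmpr1a and the effector gene Smad5 did not pass, with changes of 0.07 and 0.17 (limma adjusted p = 0.921 and 0.791).

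Of the FGF and ERK feedback genes more fell than rose: of 24 tested 3 rose and 9 fell, with a median of -0.28. Spry4, an inhibitor that ERK signalling induces, was at 23.9 and 22 FPKM in undifferentiated cells, 3.58 and 3.02 FPKM on day 1 and 0.25 and 0.181 FPKM on day 2 (log2 change -1.82 ± 0.12 (SE), limma adjusted p = 3.37e-06). The ETS factor gene Etv4 was at 55.7 and 40.5 FPKM in undifferentiated cells, 5.11 and 7.13 FPKM on day 1 and 0.795 and 0.407 FPKM on day 2 (log2 change -2.15 ± 0.26 (SE), limma adjusted p = 0.000207). Its relative Etv5 was at 68.4 and 73.9 FPKM in undifferentiated cells, 20.1 and 24.2 FPKM on day 1 and 6.83 and 5.83 FPKM on day 2 (log2 change -1.66 ± 0.17 (SE), limma adjusted p = 4.99e-05). All 3 stepped down at both days. Dusp6, the ERK phosphatase, was at 11.2 and 12.8 FPKM on day 2, against 27.4 and 28 FPKM on day 1 (log2 change -1.15 ± 0.13 (SE), limma adjusted p = 0.000119). Fgf4, the growth factor of pluripotent cells, was at 26.3 and 31 FPKM in undifferentiated cells, 1.1 and 1.06 FPKM on day 1 and 0.0776 and 0.0097 FPKM on day 2 (log2 change -1.0 ± 0.12 (SE), limma adjusted p = 0.000207). The risers were Fgf15, Fgf3 and Fgfr3, which encodes the FGF receptor of neural progenitors and was at 21.2 and 15.9 FPKM on day 2, against 1.06 and 3.28 FPKM on day 1 (log2 change 2.71 ± 0.32 (SE), limma adjusted p = 0.000168).

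Among WNT pathway genes 20 of 33 rose and 2 fell, with a median change of 0.91 and 13 to 16 rises with 1 library left out. The risers included inhibitors, ligands and receptors alike. The secreted inhibitor gene Sfrp1 was at 29.1 and 23.5 FPKM on day 2, against 5.11 and 4.73 FPKM on day 1 (log2 change 2.2 ± 0.14 (SE), limma adjusted p = 3.37e-06). Sfrp2 was at 27.6 and 45.5 FPKM on day 2, against 5.84 and 5.86 FPKM on day 1 (log2 change 2.41 ± 0.24 (SE), limma adjusted p = 4.03e-05). Axin2, a feedback target of canonical WNT signalling, was at 8.03 and 9.56 FPKM on day 2, against 2.15 and 3.43 FPKM on day 1 (log2 change 1.39 ± 0.24 (SE), limma adjusted p = 0.00235). The ligand gene Wnt5b was at 6.91 and 7.92 FPKM on day 2, against 1.73 and 1.65 FPKM on day 1. Lef1, a nuclear effector, fell, at 1.15 and 0.886 FPKM on day 2, against 4.22 and 4.87 FPKM on day 1 (log2 change -1.46 ± 0.2 (SE), limma adjusted p = 0.000454). Wnt7b was at 0.695 and 0.848 FPKM on day 2, against 1.72 and 2.88 FPKM on day 1, with a leave-one-out p of 0.0727. In the NODAL and TGF-beta list 4 of 21 rose and 5 fell, beside 7.65% and 9.56% of all genes, and 2 to 4 fell with 1 library left out. Gdf3, a NODAL partner gene, was at 25.8 and 24.4 FPKM in undifferentiated cells, 11.8 and 14 FPKM on day 1 and 1.93 and 2.83 FPKM on day 2 (log2 change -2.05 ± 0.16 (SE), limma adjusted p = 8.95e-06). Nodal was at 24.1 and 13.7 FPKM in undifferentiated cells, 0.866 and 2.94 FPKM on day 1 and 0.246 and 0.319 FPKM on day 2, and its second-day fall had a leave-one-out p of 0.264. Its target Lefty1, at 46.5 and 42.6 FPKM in undifferentiated cells, 0.468 and 0.455 FPKM on day 1 and 0.368 and 0.271 FPKM on day 2, had reached its low level by day 1. Tgfb2, by contrast, was at 3.86 and 2.57 FPKM on day 2, against 0.494 and 0.416 FPKM on day 1 (log2 change 1.52 ± 0.23 (SE), limma adjusted p = 0.000875).

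Pluripotency genes went on falling. In the naive list 14 of 26 tested fell and 2 rose, with a median of -0.99; in the general list 15 of 28 fell and 3 rose, with a median of -0.92. With 1 library left out 12 to 13 naive and 11 to 15 general genes fell, and 1 to 2 rose in each list. Nanog was at 0.518 and 0.413 FPKM on day 2, against 3.76 and 3.23 FPKM on day 1 (log2 change -1.61 ± 0.14 (SE), limma adjusted p = 1.77e-05). Zfp42, a marker of naive cells also called Rex1, was at 4.4 and 5.87 FPKM on day 2, against 22.4 and 23.4 FPKM on day 1 (log2 change -1.97 ± 0.2 (SE), limma adjusted p = 4.59e-05). Dppa5a, the most abundant general member on day 1, was at 74.6 and 77.3 FPKM on day 2, against 695 and 617 FPKM on day 1 (log2 change -3.09 ± 0.25 (SE), limma adjusted p = 1.08e-05). Dppa2 and Dppa4 encode partner proteins with a SAP domain. Dppa2 was at 1.66 and 2.67 FPKM on day 2, against 40.7 and 34.3 FPKM on day 1. Dppa4 was at 7.09 and 9.51 FPKM on day 2, against 41 and 42.8 FPKM on day 1. The F-box gene Fbxo15, an OCT4 target, was at 5.54 and 5.76 FPKM on day 2, against 73 and 63.2 FPKM on day 1. Spp1, osteopontin, was at 20 and 21.5 FPKM on day 2, against 133.8 and 116 FPKM on day 1 (log2 change -2.53 ± 0.2 (SE), limma adjusted p = 9.26e-06). Esrrb, Tfcp2l1, Klf2 and Nr5a2, factors of the naive network, changed by -1.37, -1.66, -1.41 and -1.07, all called as falls. The highest of them on day 2 was Tfcp2l1, at 1.22 and 1.58 FPKM on day 2, against 7.06 and 6.08 FPKM on day 1. Prdm14, another factor of that network, was at 2.1 and 3.07 FPKM in undifferentiated cells, 0.121 and 0.0818 FPKM on day 1 and 0.0116 and 0.0116 FPKM on day 2, and its second-day change was not called (limma adjusted p = 0.601).

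Other pluripotency genes shared with early embryonic cells were not called. Lin28a, a blocker of let-7 maturation, was at 225 and 202 FPKM in undifferentiated cells, 298 and 279 FPKM on day 1 and 270.4 and 274 FPKM on day 2, with a change of -0.08 ± 0.13 (SE; limma adjusted p = 0.704). Sall4 was at 91 and 98.2 FPKM in undifferentiated cells, 66.3 and 68.7 FPKM on day 1 and 61.2 and 63.1 FPKM on day 2, with a change of -0.12 ± 0.12 (SE; limma adjusted p = 0.534). Trim71, a developmental timing gene, was at 22.5 and 25.9 FPKM on day 2, against 27.9 and 28.5 FPKM on day 1, with a limma adjusted p of 0.362. In the list of LIN28, IGF2BP and let-7 timing genes 5 of 15 rose and none fell, and 8 rose with the GC trend removed. Hmga2, a chromatin protein gene under let-7 control, was at 87.2 and 54.7 FPKM on day 2, against 21.8 and 19 FPKM on day 1 (log2 change 1.71 ± 0.23 (SE), limma adjusted p = 0.000407). Igf2bp2 was at 66.8 and 55.9 FPKM on day 2, against 23.1 and 24.6 FPKM on day 1 (log2 change 1.32 ± 0.2 (SE), limma adjusted p = 0.000753).

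Formative and primed epiblast genes split, with 9 of 23 risen and 7 fallen. Several of those that rose are known in neural cells too. Sox11 was at 8.77 and 8.8 FPKM on day 2, against 1.25 and 1.63 FPKM on day 1 (log2 change 2.01 ± 0.38 (SE), limma adjusted p = 0.00373). Sox4 was at 53.3 and 49.3 FPKM on day 2, against 22 and 23.1 FPKM on day 1. Sall2, a zinc-finger gene, was at 33.1 and 35.4 FPKM on day 2, against 12.3 and 15.2 FPKM on day 1. Car14, a carbonic anhydrase gene, was at 10.4 and 9.52 FPKM on day 2, against 0.874 and 0.767 FPKM on day 1. Among those that fell, the de novo DNA methyltransferase gene Dnmt3a was at 187 and 143 FPKM in undifferentiated cells, 73.8 and 80.9 FPKM on day 1 and 32.5 and 37.9 FPKM on day 2 (log2 change -1.12 ± 0.16 (SE), limma adjusted p = 0.000603). Dnmt3b was at 146 and 96.4 FPKM in undifferentiated cells, 35.5 and 42.5 FPKM on day 1 and 19.8 and 20.9 FPKM on day 2, with a leave-one-out p of 0.0538. Fgf5, the classical marker of formative cells, was at 1.84 and 1.16 FPKM in undifferentiated cells, 0.124 and 0.126 FPKM on day 1 and 0.155 and 0.0477 FPKM on day 2. In the DNA methylation list Dnmt3l was at 8.71 and 8.99 FPKM on day 2, against 48.3 and 60.3 FPKM on day 1 (log2 change -2.48 ± 0.23 (SE), limma adjusted p = 2.74e-05). Tet2 was at 2.15 and 2.45 FPKM on day 2, against 10 and 9.22 FPKM on day 1 (log2 change -1.69 ± 0.27 (SE), limma adjusted p = 0.00137). Tet3, the dioxygenase gene of differentiating neural cells, was at 8.47 and 8.87 FPKM on day 2, against 3.04 and 4.63 FPKM on day 1, with a leave-one-out p of 0.0993. In that list 5 of 16 genes fell and 1 rose.

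Germ cell genes had the lowest median of the lists, -1.21, though naive pluripotency genes were lower without day 2 replicate 1 and with a pseudocount of 0.1. Of 22 tested 15 fell and none rose, and 9 to 15 fell with 1 library left out. Dazl, an RNA-binding protein of germ cells, was at 6.8 and 14.9 FPKM in undifferentiated cells, 31.2 and 21.8 FPKM on day 1 and 1.72 and 4.44 FPKM on day 2 (log2 change -2.82 ± 0.35 (SE), limma adjusted p = 0.000241). Sycp3, a protein of the meiotic chromosome axis, was at 0.567 and 0.643 FPKM on day 2, against 13.9 and 9.04 FPKM on day 1 (log2 change -2.93 ± 0.29 (SE), limma adjusted p = 4.03e-05). Hormad1, of the same axis, was at 0.325 and 0.975 FPKM on day 2, against 10.9 and 7.43 FPKM on day 1 (log2 change -2.63 ± 0.28 (SE), limma adjusted p = 7.24e-05). The piRNA pathway gene Mael was at 3.53 and 6.43 FPKM on day 2, against 13.7 and 13.3 FPKM on day 1 (log2 change -1.32 ± 0.24 (SE), limma adjusted p = 0.00303). Taf7l, a germ cell subunit of the general transcription machinery, was at 2.14 and 3.58 FPKM on day 2, against 12.6 and 10.7 FPKM on day 1. Day 2 replicate 2 was above day 2 replicate 1 in each of these and in Stra8. Rhox6 and Rhox9, X-linked homeobox genes, did not pass, Rhox6 with 14.4 and 13.7 FPKM on day 2, against 4.45 and 9.88 FPKM on day 1. The median GC content of this list was 45.6%, against 49.5% over all genes, and day 1 replicate 1 read GC-rich genes low; with the GC trend removed 14 fell and the median was -1.02. Among markers of the 2-cell-like state, 7 of 13 fell and none rose, with 1 to 7 falls when a library was left out and 4 with the GC trend removed. The Zscan4 genes of that list have near-identical copies and are uncertain.

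The promoters of Mael and Sycp3 are shown because they hold the E-box CACGTG, which was found in promoters of 8 of the 15 germ cell genes that fell (10 of 17 promoters, 58.8%), against 7.15% of all 32851 promoters. It was found in 9.9% of promoters of the genes tested and in 7.8% of those of all genes that fell. No share was taken for germ cell genes that did not fall, so the share is not tied to the fall. The motif was chosen after the values were seen and the shares were not tested. Both are RefSeq sequences of GRCm38.p6, 5′ to 3′ on the gene's strand, with the E-box in capitals, Mael from chr1:166238695-166238994 (-) and Sycp3 from chr10:88459337-88459636 (+).
Mael: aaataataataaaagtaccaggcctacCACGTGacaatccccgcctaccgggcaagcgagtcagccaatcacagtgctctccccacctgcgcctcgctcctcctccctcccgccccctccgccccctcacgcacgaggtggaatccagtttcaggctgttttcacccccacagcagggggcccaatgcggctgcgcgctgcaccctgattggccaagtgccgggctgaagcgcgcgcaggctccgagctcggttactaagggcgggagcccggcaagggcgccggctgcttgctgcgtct
Sycp3: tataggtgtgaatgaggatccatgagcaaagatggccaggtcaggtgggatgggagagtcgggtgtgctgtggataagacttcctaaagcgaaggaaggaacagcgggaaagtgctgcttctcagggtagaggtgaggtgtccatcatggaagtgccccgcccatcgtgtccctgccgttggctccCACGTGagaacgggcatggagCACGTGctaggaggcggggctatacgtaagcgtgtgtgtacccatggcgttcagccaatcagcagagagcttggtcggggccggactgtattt
In the Sycp3 promoter the 2 E-boxes begin at -64 and -43 from the start, and in Mael the match begins at -223. Both genes fell on the second day, Sycp3 to under 1 FPKM.

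The GLI core GACCACCCA was found in 0.253% of all promoters and in none of the 15 promoters of the 12 SHH feedback genes that rose and matched the table. This says only that these letters are absent from windows of 300 bases.

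**Figure D5:**
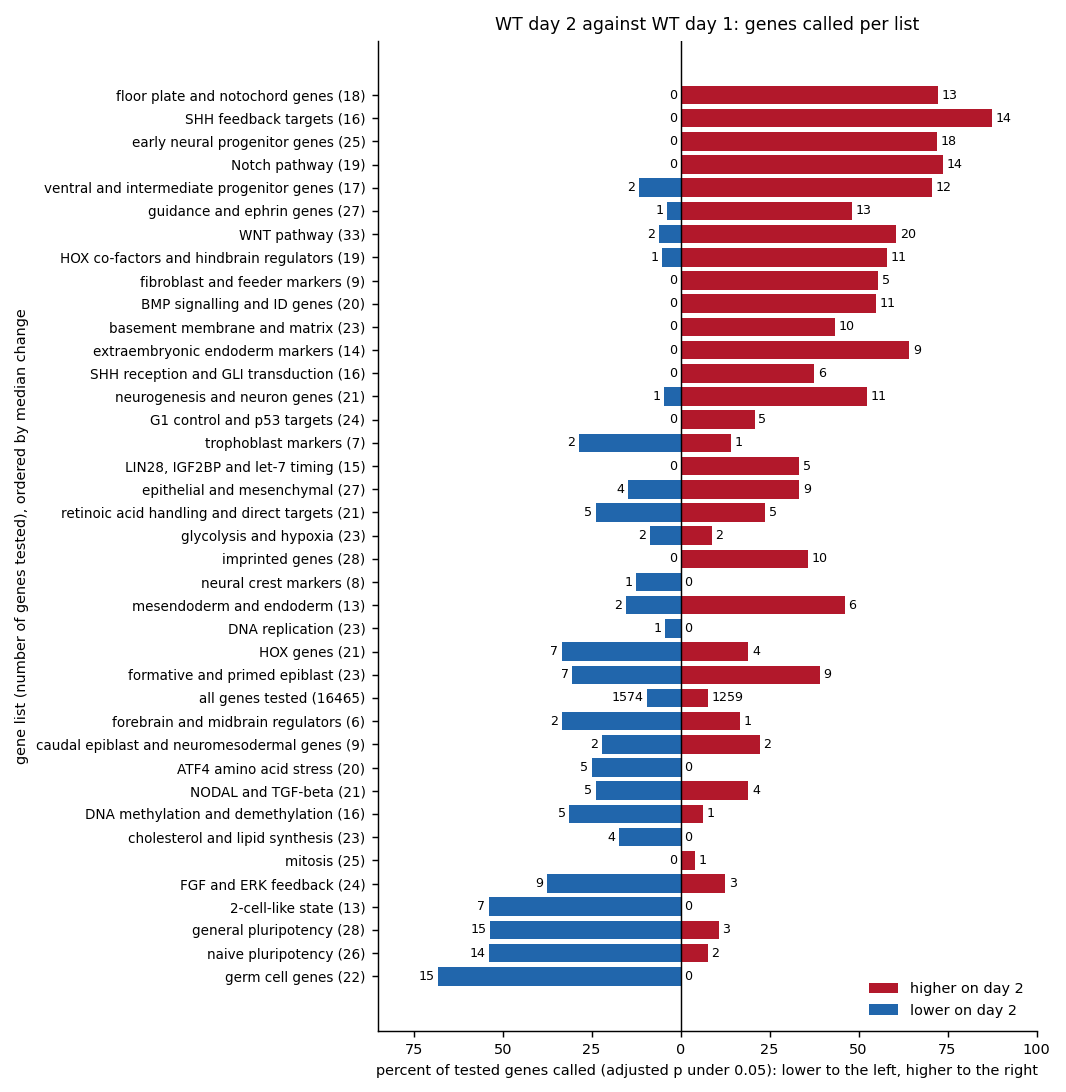
For each of the 38 gene lists and for all genes, the bars give the percent of tested genes called higher (red, right) and lower (blue, left) on day 2 than on day 1, with the number of genes at the bar end; lists are ordered by median log2 change. Floor plate, SHH feedback, neural progenitor and Notch lists stand at the top and germ cell, pluripotency and 2-cell-like lists at the bottom, while all genes together have 1259 higher and 1574 lower.

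Few cell cycle genes were called, beside 7.65% (risen) and 9.56% (fallen) of all genes. Of 23 DNA replication genes 1 fell, Gmnn, at 64.8 and 67.2 FPKM on day 2, against 114 and 87.5 FPKM on day 1, with a leave-one-out p of 0.303, and of 25 mitosis genes 1 rose, Aurkb, with a leave-one-out p of 0.274. With the GC trend removed 2 DNA replication genes rose. Of the G1 control genes 5 of 24 rose and none fell. The D-type cyclin gene Ccnd2 was at 7.9 and 6.02 FPKM in undifferentiated cells, 18.9 and 17 FPKM on day 1 and 110.0 and 124.6 FPKM on day 2 (log2 change 2.64 ± 0.32 (SE), limma adjusted p = 0.000199), beside Ccnd1. The inhibitor gene Cdkn1c was at 41.1 and 30.4 FPKM on day 2, against 10.3 and 10.7 FPKM on day 1, with a leave-one-out p of 0.056. Cdkn1a, the p53 target, was at 37.7 and 33.2 FPKM on day 2, against 18.7 and 21.2 FPKM on day 1, with a leave-one-out p of 0.0919. With the GC trend removed 9 of the 24 rose and 1 fell, and with 1 library left out 2 to 6 rose.

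Epithelial and mesenchymal genes moved in both directions, with 9 of 27 risen and 4 fallen, and 4 to 9 risen with 1 library left out. Cdh1, E-cadherin, was at 122 and 92.5 FPKM in undifferentiated cells, 59.8 and 65.7 FPKM on day 1 and 56.2 and 41.5 FPKM on day 2, and did not pass on the second day, while Cdh2 rose as described. Epcam, an epithelial adhesion gene, was at 16.3 and 12.4 FPKM on day 2, against 31.9 and 38.7 FPKM on day 1 (log2 change -1.24 ± 0.2 (SE), limma adjusted p = 0.00114). Esrp1, an epithelial splicing factor gene, and the tight junction gene Ocln changed by -1.54 ± 0.21 and -1.72 ± 0.25 (SE), and the fall of Grhl2 had a leave-one-out p of 0.109. Krt19, a keratin gene, was at 30.1 and 29.9 FPKM on day 2, against 2.04 and 7.21 FPKM on day 1, with a leave-one-out p of 0.0657. Basement membrane and matrix genes rose in 10 of 23 cases and fell in none, with a median of 0.83. The collagen IV gene Col4a1 was at 121 and 119.7 FPKM on day 2, against 14.2 and 27.4 FPKM on day 1 (log2 change 2.55 ± 0.41 (SE), limma adjusted p = 0.0012). Its neighbour and partner Col4a2 was at 67.8 and 73.6 FPKM on day 2, against 8.18 and 16.4 FPKM on day 1 (log2 change 2.5 ± 0.45 (SE), limma adjusted p = 0.00247). Both were lower in day 1 replicate 1 than in day 1 replicate 2. The laminin gene Lama1 was at 85.2 and 76.3 FPKM on day 2, against 19.8 and 26.5 FPKM on day 1 (log2 change 1.77 ± 0.28 (SE), limma adjusted p = 0.00117).

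Axon guidance genes rose in 13 of 27 cases and fell in 1, Epha1, with a median of 0.98 and 6 to 13 rises with 1 library left out; with the GC trend removed 2 fell. The Slit receptor gene Robo2 was at 11.9 and 9.43 FPKM on day 2, against 2.32 and 1.05 FPKM on day 1 (log2 change 2.15 ± 0.32 (SE), limma adjusted p = 0.000806). The ephrin gene Efnb3 was at 12 and 10.4 FPKM on day 2, against 2.09 and 2.57 FPKM on day 1 (log2 change 1.88 ± 0.14 (SE), limma adjusted p = 6.03e-06). The semaphorin receptor gene Nrp2 was at 8.47 and 6.3 FPKM on day 2, against 0.964 and 0.88 FPKM on day 1 (log2 change 2.11 ± 0.23 (SE), limma adjusted p = 8.44e-05). The leave-one-out p of Epha1 was 0.145.

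Among imprinted genes 10 of 28 rose and none passed as lower, with 5 to 9 rises when a library was left out and 1 fall with the GC trend removed. Plagl1, a zinc-finger growth regulator, was at 21 and 22.8 FPKM on day 2, against 2.02 and 2.31 FPKM on day 1 (log2 change 2.85 ± 0.36 (SE), limma adjusted p = 0.000246). Peg3 was at 179 and 152 FPKM on day 2, against 47.6 and 42.5 FPKM on day 1 (log2 change 1.85 ± 0.33 (SE), limma adjusted p = 0.00252). Nnat, neuronatin, was at 118 and 108 FPKM on day 2, against 25.3 and 38.1 FPKM on day 1 (log2 change 1.83 ± 0.29 (SE), limma adjusted p = 0.00109). In glycolysis and hypoxia 2 of 23 rose and 2 fell, Pdk1 and Pfkp, near the 7.65% and 9.56% of all genes. With 1 library left out 0 to 2 rose. Pdk1, a kinase gene that restrains pyruvate dehydrogenase, was at 16.3 and 15.4 FPKM on day 2, against 72.4 and 81.3 FPKM on day 1 (log2 change -2.21 ± 0.22 (SE), limma adjusted p = 4.41e-05). Pfkp, a phosphofructokinase gene, was at 1.7 and 2.49 FPKM on day 2, against 18.9 and 15.5 FPKM on day 1 (log2 change -2.56 ± 0.31 (SE), limma adjusted p = 0.000183). In cholesterol and lipid synthesis 4 of 23 fell and none rose, beside 9.56% of all genes that fell, and 1 to 3 fell with 1 library left out. Insig1, the sterol sensor partner, was at 35.1 and 39.2 FPKM in undifferentiated cells, 126.4 and 117 FPKM on day 1 and 68.7 and 64.6 FPKM on day 2 (log2 change -0.86 ± 0.11 (SE), limma adjusted p = 0.000214). Of 20 ATF4 amino acid stress genes 5 fell and none rose, and 2 to 4 fell with 1 library left out. The arginine transporter gene Slc7a3 was at 15 and 15.5 FPKM on day 2, against 55.2 and 51.4 FPKM on day 1. The cystathionine lyase gene Cth was at 13.2 and 13.6 FPKM on day 2, against 34.2 and 35.2 FPKM on day 1.

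Markers of other cell types were read as lists. Extraembryonic endoderm markers had 9 of 14 risen and summed levels of 898 and 833 FPKM on day 2, against 363 and 451 FPKM on day 1. The risers include the matrix genes Col4a1, Lama1 and Sparc. They also include Amot, at 34 and 29.8 FPKM on day 2, against 8.27 and 8.32 FPKM on day 1 (log2 change 1.82 ± 0.31 (SE), limma adjusted p = 0.00175). Dab2, an endocytic adaptor gene of primitive endoderm, was at 50.9 and 36.6 FPKM on day 2, against 27.7 and 22.7 FPKM on day 1, with a leave-one-out p of 0.265. Pth1r, a parietal endoderm receptor gene, was at 10.9 and 9.44 FPKM on day 2, against 1.64 and 3.61 FPKM on day 1, with a leave-one-out p of 0.187. Of visceral endoderm genes, Cubn was not called, at 12.6 and 13.1 FPKM on day 2, against 16.6 and 11.8 FPKM on day 1, and Afp, Ttr and Apoa1 were close to 0. Afp was at 0.481 and 0.117 FPKM on day 2, against 0.11 and 0.115 FPKM on day 1, Ttr at 0.243 and 0.135 FPKM on day 2, against 0.0768 and 0.0951 FPKM on day 1, and Apoa1 was listed at 0 in both day 2 libraries. Fibroblast and feeder markers had 5 of 9 risen and summed levels of 196 and 151 FPKM on day 2, against 31.2 and 52 FPKM on day 1. Most of that sum is Tagln, at 124 and 92.9 FPKM on day 2, against 17.9 and 32 FPKM on day 1 (log2 change 2.12 ± 0.32 (SE), limma adjusted p = 0.000834). Acta2 was at 48.5 and 35.7 FPKM on day 2, against 3.08 and 4.54 FPKM on day 1 (log2 change 3.17 ± 0.25 (SE), limma adjusted p = 8.81e-06). Both are smooth muscle cytoskeleton genes. Undifferentiated cells had 66.8 and 42.8 FPKM of Tagln and 25.5 and 27.1 FPKM of Acta2, above the day 1 levels. The matrix genes Dcn and Col1a2 of fibroblasts also rose. Dcn, decorin, was at 4.81 and 1.62 FPKM on day 2, against 0.245 and 0.152 FPKM on day 1 (log2 change 1.7 ± 0.33 (SE), limma adjusted p = 0.00393). Col1a2 was at 5.66 and 5.91 FPKM on day 2, against 1.97 and 2.65 FPKM on day 1 (log2 change 1.04 ± 0.17 (SE), limma adjusted p = 0.00152). The other riser, Cnn1, had a leave-one-out p of 0.304, and Col1a1 was not called, at 1.61 and 1.41 FPKM on day 2, against 1.15 and 3.4 FPKM on day 1. Postn was at 0.187 and 0.251 FPKM on day 2, against 0.287 and 0.171 FPKM on day 1. Twist2 was at 0.439 and 0.122 FPKM on day 2, against 0 and 0.0429 FPKM on day 1. Mesendoderm and endoderm markers had 6 of 13 risen and 2 fallen, and 3 to 4 risen with 1 library left out, with summed levels of 83.2 and 65.4 FPKM on day 2, against 28.1 and 27.9 FPKM on day 1. Cxcr4, a chemokine receptor gene also used by neural cells, had the highest level of the list on day 2, at 43.9 and 27.1 FPKM on day 2, against 1.41 and 1.79 FPKM on day 1 (log2 change 3.77 ± 0.28 (SE), limma adjusted p = 6.12e-06). Gata4, a factor of primitive endoderm, was at 12.3 and 12.6 FPKM on day 2, against 6.16 and 6.18 FPKM on day 1, with a leave-one-out p of 0.135. Gata6, another such factor, was at 5.29 and 5.23 FPKM on day 2, against 2.89 and 3.33 FPKM on day 1, with a leave-one-out p of 0.0964. Neither passed with the GC trend removed (limma adjusted p = 0.101 and 0.132). Sox17 was at 2.22 and 2.23 FPKM on day 2, against 0.346 and 0.757 FPKM on day 1 (log2 change 1.07 ± 0.19 (SE), limma adjusted p = 0.00263), while Gsc and Mesp1 were near 0 and Mixl1 was at 0.0656 and 0.131 FPKM on day 2, against 0.261 and 0.312 FPKM on day 1. None of 8 neural crest markers rose (1 with the GC trend removed) and Erbb3 fell, and Sox10 was at 0 and 0.0437 FPKM on day 2, against 0.0622 and 0.0673 FPKM on day 1. Of 7 trophoblast markers 2 fell, Eomes and Tfap2c, the second with a leave-one-out p of 0.142. In the same list 1 rose, Krt7, with a leave-one-out p of 0.32, and Prl3d1 was listed at 0 in all 4 libraries. The part of these other cell types in the results above was not tested.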

How the data were processed

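RNA-seq of poly-A RNA was read from 1 deposited table of FPKM values per gene for 15 libraries: undifferentiated, day 1 and day 2 cells, 2 libraries each of WT and 3 each of Foxa2-/- cells. Per the labels' protocols, libraries were made with the TruSeq Stranded mRNA kit. Per the submitters' processing notes, the build was GRCm38/mm10, and the tools named, with no roles given, are Cufflinks 2.1.1, HTSeq 0.6.1, TopHat2 2.0.4, CASAVA, bcl2fastq 1.8.3 and limma. The tool behind the FPKM values the authors deposited is not given in the sources used here. Counts were not used here, so the fragments per library were estimated from the spacing of low FPKM values. The depth limits low genes most, and an FPKM of exactly 0 can be a failed estimate: 202 genes had 0 in 1 library and 5 FPKM or more in the other of its group. These genes are not among those named for their change.

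The table has 38397 rows and 38347 identifiers once repeats were reduced to the row with the highest mean. GENCODE M21 held 36525 of them (95.2%) and gave their positions, GC content and transcript length. Genes with at least 1 FPKM in at least 2 of the 15 libraries were tested (16465). One limma 3.58.1 model (R 4.3.3) was fitted to log2(FPKM + 1) with a mean per group over all 15 libraries and a trended prior, so all groups share an estimate of the spread; p-values had Benjamini-Hochberg adjustment across all genes tested, and a gene was called under 0.05. The contrasts were WT day 2 over WT day 1, that change minus the same change in Foxa2-/- cells, and WT day 1 over undifferentiated WT cells. Both lines entered the fit because the day 2 and day 1 pairs alone give few degrees of freedom; an exact permutation test of 2 against 2 libraries cannot go below 0.333, two-sided. The procedure was tested on simulated data.

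Named in the text are the 15 largest called rises and falls among protein-coding genes with a mean of at least 5 FPKM in one of the groups, the 10 largest differences between lines in each direction, and members of 38 gene lists (782 genes, 773 in the table, 657 tested). The 15 largest rises and falls were also required to have no overlap between the day 2 and the day 1 libraries. The members and the lists were chosen with earlier results of these data known. Replicate numbers do not mark a shared culture in the labels, and same-numbered WT day 2 and day 1 libraries did not deviate together (r = 0.037), so no block was used. Day 1 replicate 1 and undifferentiated replicate 1 deviated in opposite directions (r = -0.365). Day 1 replicate 1 thus deviated together with undifferentiated replicate 2, which bears on the first-day comparison. Alternatives were another pseudocount, other filters, scalings and weights, other sets of libraries, a replicate block, isolated zeros set to missing, and each library left out; removal of a GC trend was added after the data had been seen. Promoter sequences are from RefSeq (GRCm38.p6). A few genes are counted in their lists but not reported by name or drawn here. Figures were drawn with matplotlib 3.10.9.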

Additional observations from a re-analysis of the deposited data

Results flagged for a closer look

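The change from day 1 to day 2 differed between WT and Foxa2-/- cells in 228 genes, by a test of the difference itself. The values below are that difference in log2 units less the median over all genes, 0.17, WT change minus Foxa2-/- change. The largest with the higher change in WT cells were Vtn at 3.7, Tagln at 3.11, Shh at 3.09, Krt19 at 3.07, Actc1 at 2.98, Slit1 at 2.96, Cdh6 at 2.89, Myl9 at 2.77, Acta2 at 2.77 and Foxa2 at 2.73. Foxa2 is deleted in the other line, so its difference was fixed in advance. Tagln, Actc1, Myl9 and Acta2 are smooth muscle or actin cytoskeleton genes. Tagln changed by 2.12 in WT cells and -1.16 in Foxa2-/- cells, where it was at 115, 69.5 and 108 FPKM on day 2, against 208, 223 and 212 FPKM on day 1. Actc1 was at 5.11 and 5.03 FPKM on day 2, against 1.35 and 0.613 FPKM on day 1 in WT cells and at 3.78, 3.17 and 4.43 FPKM on day 2, against 13.3, 12.8 and 11.6 FPKM on day 1 in Foxa2-/- cells. In both genes the day 1 level of Foxa2-/- cells was above that of WT cells, so the lines differed before the second day. Of these 10 genes, the differences of Krt19 and Cdh6 were called in 9 and 10 of the 23 alternatives, and the others in at least 21.

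The largest with the lower change in WT cells were Pou3f3 at -1.63, Pipox at -1.6, L1td1 at -1.54, Slc7a7 at -1.29, Nrarp at -1.14, Fgf15 at -1.14, Socs2 at -1.14, Cphx3 at -1.09, Utp6 at -1.0 and Hnrnph3 at -0.98. L1td1 changed by -4.25 in WT cells and -2.87 in Foxa2-/- cells. Fgf15 changed by 4.22 in WT cells and 5.19 in Foxa2-/- cells. Of these 10 genes the difference of L1td1 was the only one called in all 23 alternatives. That of Pou3f3 was called in 21, Pipox in 17, Slc7a7 in 12, and Fgf15 and Nrarp in 10 each. Utp6 was called in 9, Cphx3 in 8, Socs2 in 7 and Hnrnph3 in 6. No group held the 4 samples or more that a test for an outlying library needs.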

How the results depend on the processing

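The second-day count of 2833 (1259 higher, 1574 lower) moved by more than 1.5 times under these settings. It was 1811 (810 and 1001) with a filter of 5 FPKM, 801 (353 and 448) with only the groups compared, and 1715 (747 and 968) with only WT libraries. It was 4421 (2637 lower) without Foxa2-/- day 2 libraries 1 and 3, and 4628 (2070 and 2558) with array weights. Without WT day 1 replicate 1 and with the GC trend removed it was 1836 (745 higher). With each of the 4 libraries left out it lay between 1439 and 2572, with 611 to 1353 higher and 766 to 1219 lower. A replicate block gave 2230 (981 and 1249); same-numbered day 2 and day 1 libraries correlated at 0.037 in their deviations.

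The count of 228 for the difference between lines (208 higher, 20 lower) was less stable. It was 106 (98 and 8) with a pseudocount of 0.1, 371 (324 and 47) with no filter, 63 (57 and 6) with a filter of 5 FPKM, 85 higher and 51 lower with quantile normalization and 85 (77 and 8) with only the groups compared. It was 121 (102 higher) without Foxa2-/- day 2 libraries 1 and 3, 88 (82 and 6) with a replicate block, 4410 (2771 and 1639) with array weights and 488 (390 and 98) with isolated zeros as missing. With the GC trend removed it was 343 (39 lower), and 57 (50 and 7) when WT day 1 replicate 1 was also left out. With 1 library left out it lay between 62 and 2527, with 57 to 1663 higher and 4 to 864 lower. The difference of Fgf15, -0.97 with the median over all genes not subtracted, turned to 0.12 with a pseudocount of 0.1.

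The first-day count of 2774 (1784 higher, 990 lower) was 11 (7 and 4) with only the groups compared, 1769 (1136 and 633) with only WT libraries and 4479 (2889 and 1590) without Foxa2-/- day 2 libraries 1 and 3; with a filter of 5 FPKM 1117 were higher. With 1 library left out the count was between 1576 and 2024, with 962 to 1320 higher and 605 to 704 lower. A replicate block gave 2197 and a crossed block 2165. Median-of-ratios scaling gave 51.7% higher, against 64.3%. Of 206 genes named in the text with a second-day call, 166 kept it without WT day 1 replicate 1, 194 with the GC trend removed, 117 with only the groups compared and 109 in every alternative. The cause of these shifts was not tested. Low genes and genes of extreme GC content are where depth and library quality limit the comparison most.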

Other observations

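A stretch of chromosome 4 that holds zinc-finger genes was chosen after the values were seen, so its counts and medians are descriptions and no test. Between chr4:145510759-147809788 (GRCm38), all 20 protein-coding genes tested fell from day 1 to day 2, beside 9.56% of all genes. Their median log2 change was -2.59, with a range from -3.38 to -1.41. Their summed level was 108 and 144 FPKM on day 2, against 896 and 678 FPKM on day 1, and undifferentiated cells had 918 and 1383 FPKM. All 20 also fell without WT day 1 replicate 1, with the GC trend removed and under quantile or median-of-ratios scaling, with medians between -2.76 and -2.13. Those settings reuse the libraries in which the stretch was chosen, so they give no separate support. In Foxa2-/- cells the median change was -2.69, and no difference between lines was called. From undifferentiated cells to day 1 the median was -0.58, with 1 gene called. These genes are near-identical copies of each other and could share reads, so the values of single genes are uncertain and the 20 are not independent.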
